A study of Mus musculus with 24 samples.

Results

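The 8 transcripts described here encode the N-acetyltransferases Nat8, Nat8f1, Nat8f2, Nat8f3, Nat8f4 and Nat8f5 and the aminoacylases Acy1 and Acy3. They were chosen by name, as 8 of the 55335 genes counted in each kidney, for their place in mercapturate metabolism. The choice was made with the changes between genotypes known, so those changes are given as a description, without a test. RNA of whole kidneys was sequenced from 24 mice on the C57BL/6J background, 6 in each of 4 groups. The cKOm (male) and cKOf (female) mice carried Pex5lox/lox, the Pax8-rtTA transgene, which is expressed along the renal tubule, and LC1, which supplies the Cre recombinase that doxycycline (DOX) switches on. Pex5 encodes the receptor that brings most matrix proteins into peroxisomes. The Ctrlm and Ctrlf mice were Pex5lox/lox littermates without these transgenes. All groups, controls included, were 8 weeks old when DOX began. It was given over 2 weeks, and 4 weeks after its end the kidneys were taken, at ZT9 (hours after lights on) by the extraction notes, although the growth notes give ZT3 for all experiments. Cre acts in tubule cells only, so the other cells of the kidney keep Pex5.

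Mercapturates are the form in which many reactive compounds leave the body through the kidney. A glutathione S-transferase joins the compound to glutathione, gamma-glutamyltransferase and dipeptidases at the brush border trim the conjugate to a cysteine conjugate, and Nat8, in the endoplasmic reticulum of the proximal tubule, acetylates the cysteine. Aminoacylases run the last step backwards: Acy3 removes the acetyl group from mercapturates of aromatic compounds, and Acy1 does so for N-acetylated aliphatic amino acids and some mercapturates. A cysteine conjugate that is not acetylated can instead be cleaved by a cysteine conjugate lyase.

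The 6 acetyltransferase genes lie in a cluster, with other genes among them, on the minus strand of chromosome 6 of GRCm38. It runs from 85732513 to 85915687, a stretch of 183 kb that ends 38.5 Mb before Pex5 on the same chromosome. Acy1 lies on chromosome 9 from 106432981 to 106438319 on the minus strand, and Acy3 on chromosome 19 from 3986570 to 3990007 on the plus strand. The coding sequences of the acetyltransferases, compared by global alignment, were between 66.3% identical in Nat8f2 and Nat8f3 and 85% in Nat8f2 and Nat8f4. Nat8f3 stood close to 2 further genes of the cluster, with 99.6% identity to Nat8f7 and 99.3% to Nat8f6. Of all windows of 100 bases along the longest coding transcript of Nat8f3, 75.8% occurred letter for letter in a transcript of another gene. This share was 16.5% in Nat8f1, 7.43% in Nat8f4, 6.78% in Nat8f2, 4.17% in Nat8f5 and 1.07% in Nat8, 3.77% in Acy3 and 0% in Acy1. In Nat8f6, which is not a member, it was 51%. With windows of 50 bases the shares were 85.2% in Nat8f3, 31.8% in Nat8f1, 19.7% in Nat8f4 and 17.9% in Nat8f2. They were 9.28% in Nat8f5, 8.72% in Acy3, 5.68% in Nat8 and 0% in Acy1. The shared windows of Nat8f2 occurred in Nat8f4 only. The levels of Nat8f3 and Nat8f6 are therefore uncertain, and those of Nat8f1, Nat8f2 and Nat8f4 less so. Besides, 135 exon bases of Nat8f5 (13.7% of its exons) are also exon bases of Nat8f6 on the same strand, where reads cannot be assigned.

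Stretches of 100 bases just before the start of 3 genes of the cluster and of Acy3 are shown because Nat8f5 and Nat8f6 varied together between kidneys, Nat8f2 was higher in cKO kidneys of both sexes, and Acy3 had the largest difference between genotypes. They are promoter sequences of RefSeq on GRCm38.p6, read 5′ to 3′ on the strand of the gene, at chr6:85869159-85869258, chr6:85820973-85821072, chr6:85809878-85809977 and chr19:3986470-3986569. For Nat8f2 the stretch ends 21 bases earlier than the RefSeq start, where the GENCODE transcript begins. In the cluster genes capitals mark the longest runs that 2 of them share, and in Acy3 they mark TATAAA.
Nat8f2: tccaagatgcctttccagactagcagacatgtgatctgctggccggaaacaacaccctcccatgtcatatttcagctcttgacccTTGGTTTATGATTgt
Nat8f5: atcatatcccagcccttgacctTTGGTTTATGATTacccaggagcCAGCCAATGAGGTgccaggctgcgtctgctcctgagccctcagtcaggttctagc
Nat8f6: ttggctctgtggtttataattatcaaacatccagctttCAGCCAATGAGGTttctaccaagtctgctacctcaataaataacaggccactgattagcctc
Acy3: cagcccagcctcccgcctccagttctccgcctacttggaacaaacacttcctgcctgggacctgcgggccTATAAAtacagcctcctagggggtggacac

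The run of 13 bases shared by Nat8f2 and Nat8f5, TTGGTTTATGATT, occurred in 2 of 32851 RefSeq promoters of 300 bases (250 before and 50 after the start, both strands searched), those of these genes. The run shared by Nat8f5 and Nat8f6, CAGCCAATGAGGT, occurred in 4 promoters, those of both genes, Nat8f7 and Dcaf11. Each run was picked as the longest that its 2 promoters share, so at least 2 matches were fixed in advance and nothing is read from these counts. The promoters of Nat8f6 and Nat8f7 were 92.9% identical by alignment. All 8 members had a promoter in the table, and Nat8 and Nat8f4 had a pair of starts each. TATAAA was found for 2 of the 8 members, Nat8f4 and Acy3, and in 13.6% of all promoters. In Acy3 it began 30 bases before the start. CCAAT was found for 5 members and in 37.4% of all promoters, GTTAAT for 2 members and in 7.1%, and AGAACA for 1 member and in 19%. The longest run shared by promoters of members had 100 bases. It lay in those of Nat8f3 and of the Nat8 start that held the AGAACA match. Matches of different motifs did not overlap, except that CCAAT lies inside the second shared run. These are matches of letters in the window only. The first bases after both Nat8 starts and after 1 Nat8f4 start were not found in GENCODE transcripts of these genes. A member was counted if any of its starts had the motif, while the shares of all promoters count each promoter singly.

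The deposited counts summed to 19376152 to 28470831 per kidney. CPM are counts scaled to a common library size. Genes that reached 1 CPM in any kidney were tested, 16092 in all with the 8 members among them. Levels are CPM on library sizes scaled by TMM (trimmed mean of M values), and fold changes are log2 values from edgeR with their standard error (SE). A gene was called with an adjusted p under 0.05. Pex5 was at 54.3 ± 4.63 CPM in Ctrlm and 43.7 ± 1.94 in cKOm kidneys, and at 50.3 ± 6.97 in Ctrlf and 43.6 ± 3.55 in cKOf kidneys (SD, n = 6), lower in every cKOm than in every Ctrlm kidney and overlapping in females. These counts take in all exons of Pex5 and all cells of the kidney, so they do not measure the extent of the deletion. The summed level of 8 proximal tubule markers was 9443 to 10985 CPM in Ctrlm and 8511 to 9493 CPM in cKOm kidneys, and 10164 to 11567 CPM in Ctrlf and 8648 to 10688 CPM in cKOf kidneys. All 15 hepatocyte markers were also detected, with sums of 334 to 1376 CPM in Ctrlm and 349 to 801 CPM in cKOm kidneys, and 315 to 626 CPM in Ctrlf and 305 to 450 CPM in cKOf kidneys. None was at 0 throughout a group, and 5 were called in cKOm against Ctrlm kidneys, 4 of them lower (Alb, Apoa2, Fgg and Serpina1b). The median log2 fold change of the 15 was -1.91 in males, where 13 had an unadjusted p under 0.05 by edgeR, and -0.06 in females. The share of all tested genes at that level is not given. Among markers of other cells, Slc12a1 of the thick limb and Scnn1b of the collecting duct rose and the macrophage marker Csf1r fell in cKOm kidneys, with sums of 3370 to 4286 CPM in Ctrlm and 4044 to 4735 CPM in cKOm kidneys for the 4 thick limb markers and of 83.5 to 117 and 62.7 to 91.4 CPM for the 4 macrophage markers. Each of these genes was the only 1 called among the 4 markers of its list. The sums of the 4 collecting duct markers overlapped, at 149 to 176 CPM in Ctrlm and 144 to 198 CPM in cKOm kidneys. The part of all these markers in the results was not tested.

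**Figure D1:**
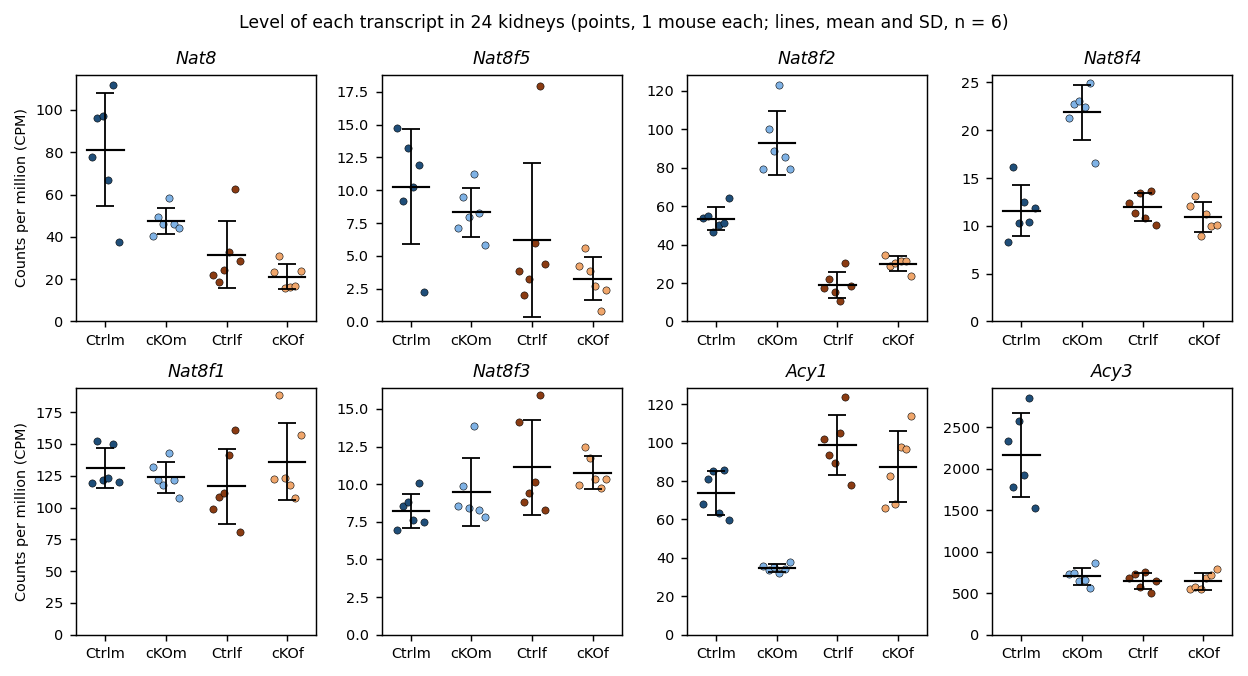
Level in CPM of each of the 8 transcripts (vertical axes, from 0) in the 4 groups, with 1 point per mouse and lines for the mean and SD (n = 6). Acy1 and Acy3 lie lower, and Nat8f2 and Nat8f4 higher, in all cKOm than in all Ctrlm kidneys, and 1 Ctrlf kidney stands apart for Nat8 at 62.6 CPM and for Nat8f5 at 17.9 CPM.

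The aminoacylases were lower in kidneys of cKOm mice. Acy3, which hydrolyses mercapturates, had 1524 CPM in the lowest, 2130 in the median and 2856 in the highest of 6 Ctrlm kidneys, against 563, 698 and 869 in cKOm kidneys. Every cKOm kidney was below every Ctrlm kidney. The mean was 3.08-fold lower in cKOm mice, with a log2 fold change of -1.62 (SE 0.14). In females the values were 497, 665 and 754 CPM in Ctrlf and 550, 627 and 793 in cKOf kidneys, which overlapped, and the log2 fold change was -0.0028 (SE 0.14). The cKOm kidneys lay within or just above the range of the female kidneys, and the order of the groups was Ctrlm far above the other 3, whose ranges overlapped. In a bulk sample, fewer cells that express a transcript and less of it per cell cannot be told apart.

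Acy1, the deacetylase of N-acetylated amino acids, had 59.7, 74.3 and 85.8 CPM (lowest, median and highest) in Ctrlm and 32.1, 34.8 and 37.9 in cKOm kidneys. These groups did not overlap, and the 6 cKOm kidneys were below all 18 others. The mean was 2.12-fold lower, with a log2 fold change of -1.08 (SE 0.13). In females Acy1 had 77.9, 98 and 124 CPM in Ctrlf and 66.1, 89.8 and 114 in cKOf kidneys, with wide overlap and a log2 fold change of -0.17 (SE 0.12). The order of the groups was Ctrlf, cKOf, Ctrlm and cKOm, in which the first 3 overlapped with their neighbours. The sum of proximal tubule markers was also lower in cKOm kidneys, as given above, and 3 of its 8 markers fell (Lrp2, Slc34a1 and Aqp1), while 1 was higher in every cKOm than in every Ctrlm kidney and the median log2 fold change of the 8 was -0.04. Its part in the lower aminoacylases was not tested. With the hepatocyte marker level as a covariate, the male log2 fold changes were -1.52 for Acy3 and -1.02 for Acy1.

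Among the acetyltransferases, Nat8f2 and Nat8f4 were higher in cKOm kidneys. Nat8f2 had 46.6, 52.5 and 64.3 CPM (lowest, median and highest) in Ctrlm and 79.3, 87.2 and 123 in cKOm kidneys, without overlap. The mean was 1.73-fold higher, with a log2 fold change of 0.79 (SE 0.16). In females Nat8f2 had 10.7, 17.8 and 30.2 CPM in Ctrlf and 23.5, 31 and 34.7 in cKOf kidneys, with a mean 1.58-fold higher in cKOf kidneys and a log2 fold change of 0.66 (SE 0.16). The female groups overlapped because of Ctrlf mouse 5, which was the highest control at 30.2 CPM when the next reached 22.3. Without this mouse the female log2 fold change was 0.84. Nat8f2 was the only member called in females, against 0.851% of all tested genes. The call did not hold when females were adjusted or fitted on their own, as given in the closing section.

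Nat8f4, whose coding sequence is the closest of the members to Nat8f2, had 8.28, 11.2 and 16.2 CPM in Ctrlm and 16.6, 22.6 and 25 in cKOm kidneys. The groups did not overlap, though the lowest cKOm kidney was close to the highest Ctrlm kidney. The mean was 1.89-fold higher, with a log2 fold change of 0.91 (SE 0.13). In females Nat8f4 had 10.1, 11.9 and 13.7 CPM in Ctrlf and 8.91, 10.7 and 13.1 in cKOf kidneys, and the log2 fold change was -0.13 (SE 0.13). The order of the groups was cKOm above the other 3, whose ranges overlapped. With the hepatocyte covariate the male log2 fold changes were 0.77 for Nat8f2 and 0.88 for Nat8f4.

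Nat8, which gives its name to the family, had 37.4, 87.1 and 112 CPM in Ctrlm and 40.5, 46.1 and 58.3 in cKOm kidneys. It was lower in cKOm kidneys than in 5 of the 6 Ctrlm kidneys, and Ctrlm mouse 6 was below all cKOm kidneys. The log2 fold change in males was -0.78 (SE 0.24), and without Ctrlm mouse 6 it was -0.96. In females Nat8 had 18.8, 26.6 and 62.6 CPM in Ctrlf and 15.8, 20.1 and 30.9 in cKOf kidneys. The groups overlapped, and the log2 fold change of -0.58 (SE 0.25) became -0.26 without Ctrlf mouse 5, which carried the highest value. Nat8f5, which lies beside Nat8 in the cluster, had 2.28, 11.1 and 14.8 CPM in Ctrlm and 5.86, 8.1 and 11.2 in cKOm kidneys, and 2.03, 4.12 and 17.9 in Ctrlf and 0.798, 3.27 and 5.56 in cKOf kidneys. The lowest male control was again Ctrlm mouse 6 and the highest female control Ctrlf mouse 5. Its log2 fold changes were -0.31 (SE 0.42) in males and -0.96 (SE 0.44) in females, the latter -0.26 without Ctrlf mouse 5. The male value was -0.55 without Ctrlm mouse 6 and -0.18 without Ctrlm mouse 1, and -0.14 by limma-voom.

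The remaining acetyltransferases showed little difference between genotypes. Nat8f1 was at 131 ± 15.7 CPM in Ctrlm and 124 ± 12.1 CPM in cKOm kidneys, and at 117 ± 29.4 CPM in Ctrlf and 136 ± 30.6 CPM in cKOf kidneys (SD, n = 6), with log2 fold changes of -0.08 (SE 0.14) in males and 0.22 (SE 0.14) in females. Nat8f3 was at 8.24 ± 1.13, 9.46 ± 2.25, 11.1 ± 3.15 and 10.8 ± 1.1 CPM in the same order (SD, n = 6), with log2 fold changes of 0.20 (SE 0.16) and -0.05 (SE 0.16). The male value of Nat8f3 was 0.06 without cKOm mouse 4. Neither passed the threshold in either sex. In all, 4 of the 8 members were called in males, with 2 higher (4.14% of all tested genes) and 2 lower (4.9%), 9.05% in all, and in 4 of 8 the groups did not overlap, against 7.38% of all tested genes. In females 1 of 8 was called, and all 8 overlapped between the groups, where 0.559% of all tested genes did not. Nothing is read from these counts, since the members were chosen with them known. The median log2 fold change of the 8 members was -0.20 in males and -0.09 in females, beside 0.01 and 0.0019 over all tested genes.

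**Figure D2:**
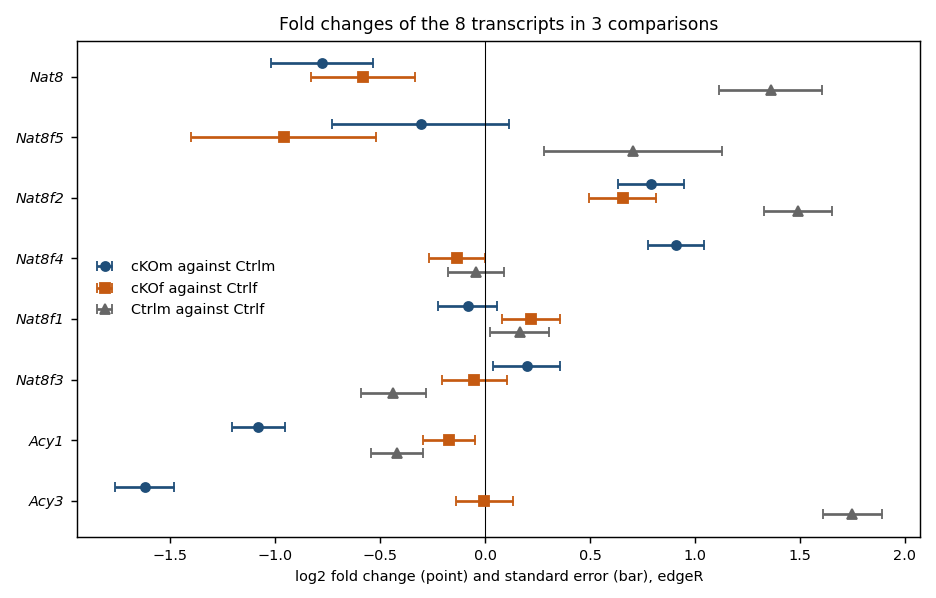
log2 fold change with its SE (horizontal axis) of the 8 transcripts for cKOm against Ctrlm, cKOf against Ctrlf and Ctrlm against Ctrlf. The first and the last comparison share the Ctrlm kidneys, and Acy3 reaches -1.62 in the first and 1.75 in the last.

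On a scale of CPM per kilobase of exon, Nat8f1 was the highest of the 6 acetyltransferases in each group, and Acy3 was above all other members. The length was not corrected for sequence repeated in close copies, where reads can be lost. It also takes in the exons of all transcripts of a gene, so it can exceed the length of any single transcript. Levels, sums and shares of different transcripts on this scale are therefore approximate, most of all for Nat8f3. The 6 acetyltransferases summed to 204 ± 35 CPM per kb in Ctrlm and 182 ± 20.7 in cKOm kidneys, and to 135 ± 42.6 in Ctrlf and 140 ± 28.9 in cKOf kidneys (SD, n = 6). Nat8f6 and Nat8f7 of the same cluster, which are not members, are left out of this sum, so each share is a share among the 6 members only. The makeup of the sum also differed between groups. Nat8f2 gave 6.28% to 12.9% of it in Ctrlm and 13.7% to 16.9% in cKOm kidneys, without overlap, and 2.14% to 6% in Ctrlf and 4.6% to 8.52% in cKOf kidneys. The mean share of Nat8 was 34.6% in Ctrlm and 23.2% in cKOm kidneys, and 20.2% in Ctrlf and 13.4% in cKOf kidneys. Nat8f1 gave on average 48.3% in Ctrlm and 50.7% in cKOm kidneys, and 65% in Ctrlf and 72.2% in cKOf kidneys. Acy1 and Acy3 summed to 1085 ± 251 CPM per kb in Ctrlm and 356 ± 51.8 in cKOm kidneys, and to 349 ± 46.3 in Ctrlf and 345 ± 55.9 in cKOf kidneys (SD, n = 6).

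**Figure D3:**
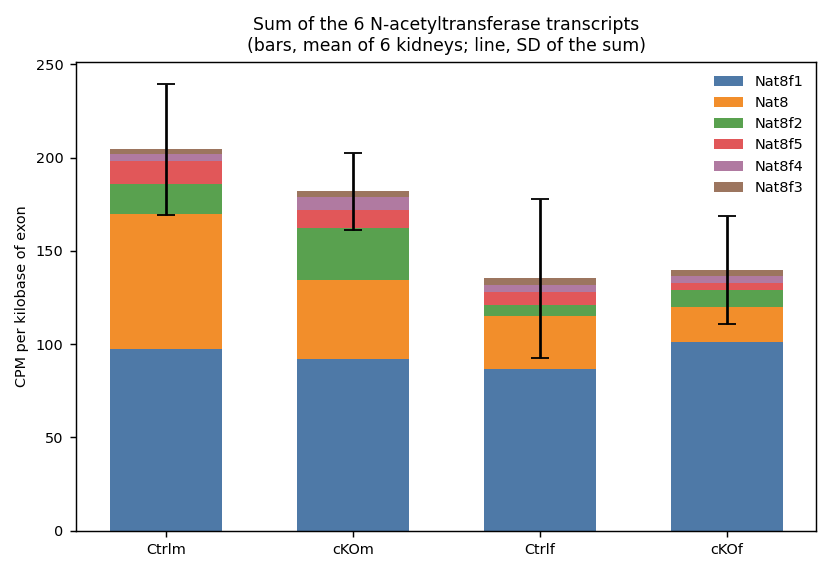
Summed level of the 6 acetyltransferase transcripts in CPM per kilobase of exon (vertical axis, from 0) by group, with stacked bars for the mean of each transcript and a line for the SD of the sum over 6 kidneys. Nat8f1 is the largest part in each group, and the sums of 204 in Ctrlm and 182 in cKOm lie above those of 135 in Ctrlf and 140 in cKOf.

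The difference between male and female controls rests on the same Ctrlm kidneys as the male genotype comparison, which was known when the members were chosen. It is therefore also given as a description, without p values. It called 4 of the 8 members, against 16.8% of all tested genes, with 3 higher in Ctrlm (8.71% of all tested genes) and 1 higher in Ctrlf kidneys (8.11%). Acy3 was 3.35-fold higher in Ctrlm than in Ctrlf kidneys (log2 fold change 1.75, SE 0.14), Nat8f2 2.81-fold higher (1.49, SE 0.16), and Nat8 2.57-fold higher (1.36, SE 0.24). For Acy3 and Nat8f2 every male was above every female, and 7.35% of all tested genes did not overlap. For Nat8 the groups overlapped because Ctrlf mouse 5 (62.6 CPM) was above Ctrlm mouse 6 (37.4 CPM). Acy1 was 1.34-fold higher in Ctrlf kidneys (log2 fold change -0.42, SE 0.12), with overlap. The call of Acy1 was lost without Ctrlf mouse 5 (log2 fold change -0.32), without Ctrlm mouse 6 (-0.35) and with the hepatocyte covariate, where the log2 fold change was as large, at -0.50. Of 15 hepatocyte markers, 14 were called higher in Ctrlm than in Ctrlf kidneys, and the median log2 fold change of the 15 was 3.12.

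The other 4 members did not pass the threshold between control males and females. The log2 fold change of Nat8f3 was -0.44 (SE 0.16). It passed without Ctrlf mouse 2, 3 or 6, Ctrlm mouse 5 or cKOm mouse 4 (-0.44 to -0.51), and was -0.28 without Ctrlf mouse 5. That of Nat8f5 was 0.70 (SE 0.42), and it passed at 1.42 without Ctrlf mouse 5. For Nat8f1 it was 0.17, with an approximate 95% interval from -0.11 to 0.44, and for Nat8f4 it was -0.04, with an interval from -0.30 to 0.22. The mean level of Nat8f4 was 11.6 CPM in Ctrlm and 12 CPM in Ctrlf kidneys, and its level in cKOm kidneys was 2-fold that in cKOf kidneys. Acy3 went the other way, from 3.35-fold between controls to 1.09-fold between cKO kidneys of males and females.

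The change with genotype differed between males and females for 3 members by the interaction of genotype and sex, against 2.31% of all tested genes, which is again given as a description. The male minus the female log2 fold change was -1.62 (SE 0.20) for Acy3, -0.91 (SE 0.18) for Acy1 and 1.04 (SE 0.19) for Nat8f4. For Nat8f2, which was higher in cKO kidneys of both sexes, it was 0.13, with an interval from -0.31 to 0.58. For Nat8 it was -0.20, with an interval from -0.87 to 0.48, and without Ctrlf mouse 5 it was -0.55. Pex5 itself was lower by a log2 fold change of -0.31 (SE 0.08) in males and -0.21 (SE 0.08) in females, and the approximate 95% interval of the difference was -0.33 to 0.12. Such counts of the whole gene in whole kidneys do not measure the deletion. Whether the deletion was equally complete in tubule cells of both sexes was not tested with these counts, which cannot show it.

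The steps of the pathway before and beside acetylation were followed in 38 other genes, of which 34 were tested. In cKOm kidneys 13 of the 34 were called, 5 higher and 8 lower, against 9.05% of all tested genes. Their median log2 fold change was -0.13, beside 0.01 over all tested genes. In cKOf kidneys edgeR, limma-voom and DESeq2 called none, against 0.851% of all tested genes by edgeR. An unadjusted p under 0.05 by edgeR was reached by 4. The share of all tested genes at that level is not given, so nothing is read from this count. The median log2 fold change of the 34 genes in females was -0.08. These genes are not members, but they too were listed with results of these data known, so their counts and p values are also a description.

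Of the glutathione S-transferases and related conjugating enzymes, 6 of 21 changed in males, 3 in each direction. Gstm1, a main cytosolic glutathione S-transferase, fell from 329 ± 18.2 CPM in Ctrlm to 158 ± 21.5 in cKOm kidneys (SD, n = 6), with a log2 fold change of -1.06 (SE 0.10, edgeR adjusted p = 3.86e-08) and no overlap. Gstp1 (log2 fold change -0.69) and Gstp2 (-1.83), which is near the detection limit at 0.246 CPM in cKOm kidneys, also fell, and Gstm7 (0.78), Gstm6 (1.46) and Gsta4 (0.57) rose. The calls of Gstp1, Gstp2 and Gsta4 were lost with the hepatocyte covariate (adjusted p = 0.167, 0.134 and 0.209), with log2 fold changes of -0.53, -1.54 and 0.50, and that of Gsta4 held in 17 of 33 alternatives. The Gstm, Gsta and Gstp genes have close copies, between which reads may be split.

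Of 7 tested trimming enzymes 3 changed in males. Ggt1, the gamma-glutamyltransferase of the brush border, fell from 1184 ± 243 CPM in Ctrlm to 546 ± 53.3 in cKOm kidneys (SD, n = 6), with a log2 fold change of -1.12 (SE 0.12, edgeR adjusted p = 4.75e-07). Lap3, a leucine aminopeptidase that splits cysteinylglycine, fell from 503 ± 88.2 to 245 ± 12 CPM (log2 fold change -1.04, SE 0.09, adjusted p = 2.59e-08). Neither overlapped between the groups. Ggt6, a relative of Ggt1 at a low level, rose from 5.83 to 9.79 CPM (log2 fold change 0.74, adjusted p = 0.000972). The brush border dipeptidase Dpep1 (log2 fold change -0.15) and the aminopeptidase Anpep (-0.26) were not called.

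Both cysteine conjugate lyases fell in males. Kyat1 had 56.5 to 89.4 CPM in Ctrlm and 34 to 45 in cKOm kidneys (log2 fold change -0.92, SE 0.12, edgeR adjusted p = 7.53e-06). Kyat3 had 35.3 to 57.2 CPM in Ctrlm and 26.1 to 37.4 in cKOm kidneys (log2 fold change -0.57, SE 0.11, adjusted p = 0.00153), and these groups overlapped. Of 4 transporters, Slc22a6, which takes organic anions up into the tubule cell, fell (log2 fold change -0.65, SE 0.11, adjusted p = 0.000418), and the efflux pump Abcc4 rose (0.71, SE 0.17, adjusted p = 0.00854, with 0.0639 and a log2 fold change of 0.68 with the hepatocyte covariate). The anion transporter Slc22a8 (0.10) and the efflux pump Abcc2 (0.32) were not called. The female log2 fold changes of these 4 transporters lay between -0.26 and 0.03.

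**Figure D4:**
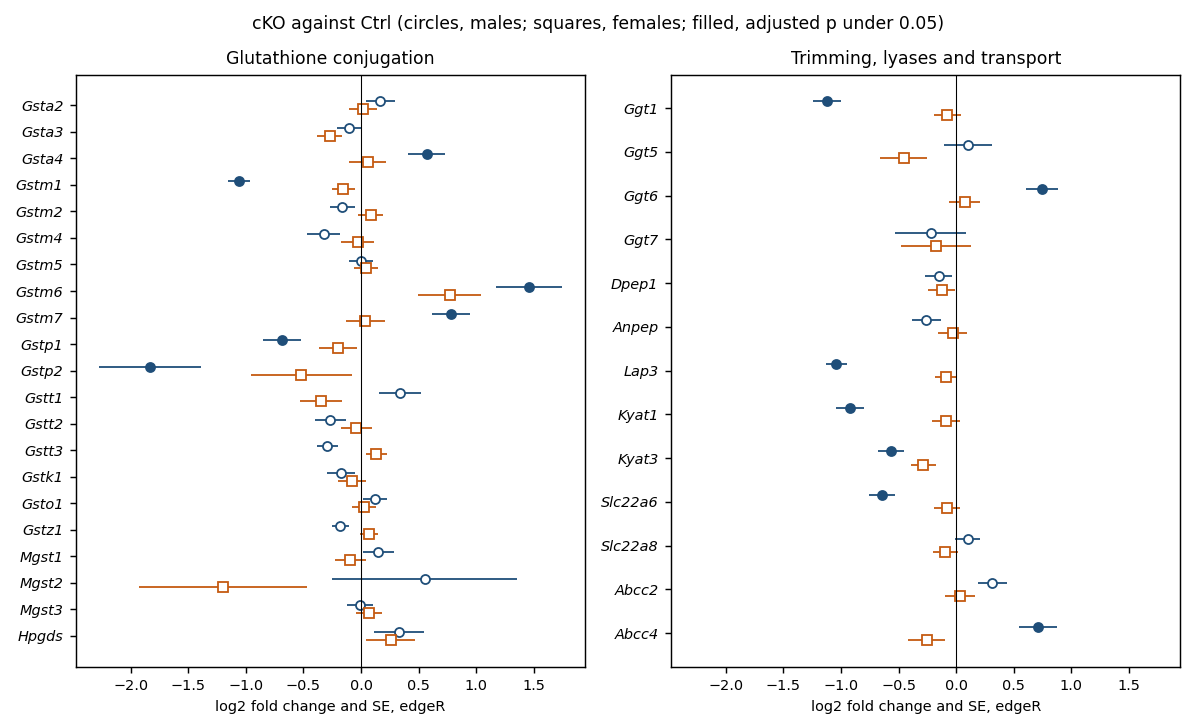
log2 fold change with SE (horizontal axes) of the 34 tested genes of conjugation (left) and of trimming, lyases and transport (right), with circles for males, squares for females and filled symbols for calls. The 13 filled symbols are all of males, and none of the female values is called.

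The male change differed from the female one for 5 of the 34 genes by the interaction (edgeR), against 2.31% of all tested genes. The difference in log2 fold change was -0.91 for Gstm1 (adjusted p = 0.000229), -1.04 for Ggt1 (0.000516), -0.95 for Lap3 (8.4e-05), -0.83 for Kyat1 (0.00475) and 0.97 for Abcc4 (0.0209). Between control males and females 15 of the 34 were called, against 16.8% of all tested genes, 6 higher in males, among them Ggt1, Lap3, Kyat1 and Slc22a6, and 9 higher in females, among them Gsta4, Kyat3 and Abcc4. This comparison and the male one share the Ctrlm kidneys. In log2 values for male genotype and then for control sex, Lap3 had -1.04 and 1.26, Kyat1 -0.92 and 1.02, Ggt1 -1.12 and 0.66, Slc22a6 -0.65 and 1.03, Abcc4 0.71 and -1.62 and Gsta4 0.57 and -2.44. Kyat3 had the same sign in both, with -0.57 and -1.54.

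Among 11 relatives of the members, 2 fell in cKOm kidneys by edgeR, beside the 4.9% of all tested genes. In cKOf kidneys edgeR, limma-voom and DESeq2 called none, and none had an unadjusted p under 0.05. Pm20d1, an N-fatty-acyl-amino acid synthase and hydrolase, had a log2 fold change of -0.41 (SE 0.12, edgeR adjusted p = 0.0451), and Gm4952, which resembles the glycine N-acyltransferases, had -1.01 (SE 0.26, adjusted p = 0.017). Both calls were lost with the hepatocyte covariate (adjusted p = 0.167 and 0.262, log2 fold changes -0.41 and -0.73), and that of Gm4952 also without Ctrlm mouse 3. The call of Pm20d1 held in 18 of 33 alternatives. Aspa, the aspartoacylase closest in family to Acy3, was lower in every cKOm kidney (88.8 to 98 CPM) than in every Ctrlm kidney (101 to 151 CPM) but did not pass the threshold (log2 fold change -0.43, SE 0.14, adjusted p = 0.0663). Nat8f6 and Nat8f7 of the same cluster did not pass it in either sex. Nat8f6 was at 56.5 ± 23.2 CPM in Ctrlm and 40.3 ± 9.55 in cKOm kidneys, and Nat8f7 at 2.68 ± 0.683 and 3.76 ± 1.31 (SD, n = 6).

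Within 1 Mb of the cluster 34 of 84 genes that are not members were tested. In males 4 of the 34 rose (Exoc6b, Tgfa, Pcyox1 and Mxd1), beside the 4.14% higher and 9.05% called in all among all tested genes. Their log2 fold changes were 0.37 to 0.48 (edgeR adjusted p = 0.0175, 0.0309, 0.00389 and 0.00379). In females none was called by edgeR, limma-voom or DESeq2. An unadjusted p under 0.05 by edgeR was reached by 2, given without the share of all tested genes. All 4 calls were lost with the hepatocyte covariate, with adjusted p from 0.0741 to 0.167 and log2 fold changes of 0.32 to 0.48, those of Exoc6b and Tgfa also with every gene tested, and that of Tgfa also when any of 7 single mice was left out. Over all of the 34 genes the median log2 fold change in males was 0.07.

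Kidneys also varied within their groups. Nat8, Nat8f5 and Nat8f6 did so most closely together, and Nat8f1 and Nat8f3 did so in part. As deviations of log2 CPM from the group means, over 24 kidneys, Nat8 and Nat8f5 had a Pearson r of 0.82 and a Spearman rho of 0.74, and r was 0.65 without the 2 kidneys farthest out in Nat8 (Ctrlf mouse 5 and Ctrlm mouse 6). Nat8 and Nat8f6 had r of 0.83 and rho of 0.70, and 0.71 without these 2 kidneys. The level of Nat8f6 is itself uncertain, since 51% of its windows of 100 bases occur in other genes. Nat8f5 and Nat8f6 had r of 0.83 and rho of 0.75, but they share exon bases. Nat8f1 had r of 0.67 and rho of 0.62 with Nat8, and 0.63 without the same 2 kidneys. Nat8f3 had r of 0.55 with Nat8 and 0.64 with Nat8f6. Nat8f2, which lies between Nat8 and Nat8f4, had r of 0.11 with Nat8, which pooled opposite values (-0.77 in the 6 Ctrlm and 0.97 in the 6 cKOm kidneys). Nat8f4 and Acy3 had a negative r of -0.61 (rho -0.68). These values are descriptions across kidneys that share library depth and makeup. These 2 kidneys lay within the range of their group in hepatocyte markers, at 349 CPM in Ctrlf mouse 5 (others 315 to 626) and 410 CPM in Ctrlm mouse 6 (others 334 to 1376). Ctrlf mouse 5 had the highest sum of proximal tubule markers of the Ctrlf kidneys (11567 CPM, others up to 11360) and the lowest of tubular injury markers (20.8 CPM, others from 22.3), and Ctrlm mouse 6 had the highest sum of macrophage markers of the Ctrlm kidneys (117 CPM, others up to 114). Their part was not tested.

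**Figure D5:**
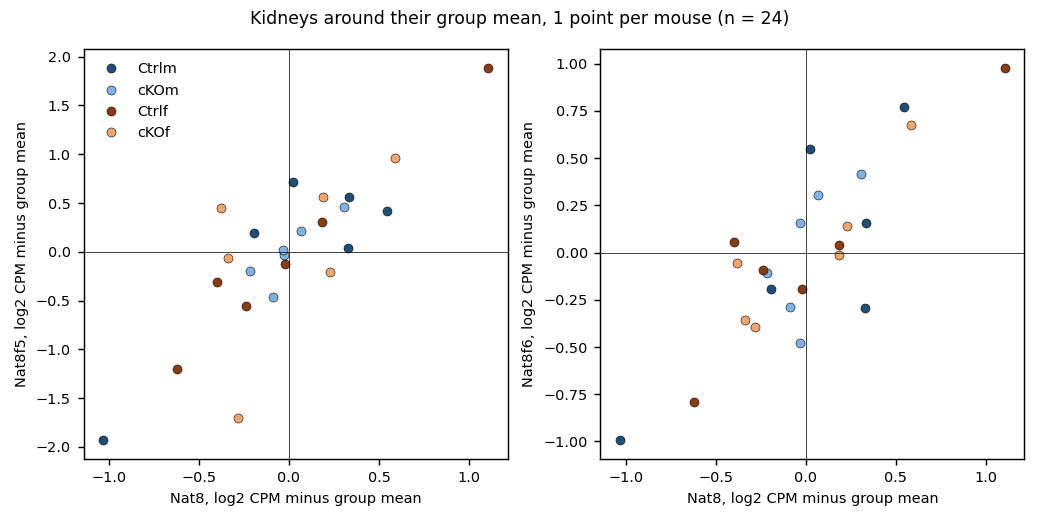
Deviation of log2 CPM from the group mean for Nat8 (horizontal axes) against Nat8f5 (left) and Nat8f6 (right), with 1 point per mouse coloured by group (n = 24). Ctrlf mouse 5 lies at the upper right and Ctrlm mouse 6 at the lower left of both plots.

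The genes whose level followed each member most closely over all 24 kidneys were looked for among 9433 genes with a mean of at least 10 CPM, by Pearson r of log2 CPM. Those given here were Lap3 (r = 0.98) and Npm3 (0.97) for Acy3, Bdh1 (0.94) and Napsa (0.93) for Acy1, Slc22a22 (0.91) and Adh1 (0.90) for Nat8, and Ankrd29 (0.90) and Gcnt1 (0.89) for Nat8f2. For Nat8f4 they were Ncapd3 (0.83) and Tctn1 (0.82), for Nat8f5 Cryz (0.77), for Nat8f1 Dynll2 (0.74) and Ctsd (0.74), and for Nat8f3 Rtkn (0.73) and Prnp (0.73). On deviations from the group means, where differences between groups play no part, other genes came first, among them Acbd4 (0.88) and Aup1 (0.86) for Acy3, Psmb4 (0.82) for Acy1, Ces1d (0.84) and Mlst8 (0.83) for Nat8, Zranb2 (0.81) and Tardbp (0.81) for Nat8f2, Xpnpep3 (0.78) and Jarid2 (0.77) for Nat8f4, Nat8f6 (0.83) and Ces1d (0.74) for Nat8f5, Rps27a (0.86) and Cela1 (0.80) for Nat8f1, and BC005537 (0.71) and Dynll2 (0.70) for Nat8f3.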

How the data were processed

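RNA-seq of whole kidneys was analysed for 24 mice, 6 per group, with groups taken from the labels. Per the labels, libraries were made with a stranded mRNA kit from total RNA. The submitters' processing notes name cutadapt 1.8, STAR 2.5.3a, HTSeq 0.9.1 and GRCm38. The read length and the strand setting of the counting are not given in the sources used here. The authors deposited 1 file per kidney with whole read counts per gene, without normalization. Each held 55335 genes and 5 closing lines of reads not counted on a gene, which were left out, among them reads that aligned to several places (26.9% to 34.8%) or were ambiguous between genes (0.706% to 0.939%). Names and positions came from GENCODE M21 (GRCm38), in which 55154 genes were found. The replicates are different mice, and kidneys of a group differed by more than sampling noise (over 60 pairs the chi-square was 9.53 to 94.9 times its degrees of freedom). The number of mice and counts limits the precision: a gene with 3 counts or fewer is at the floor, which covers counting error only.

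Counts were compared with edgeR 4.0.16 in R 4.3.3 (TMM, 1 quasi-likelihood model for the 4 groups). Benjamini-Hochberg adjustment covered both genotype tests (males and females) jointly, while the sex and interaction tests were each adjusted over the tested genes. The SE is the absolute log2 fold change over the square root of the F statistic. CPM per kb used the merged exon bases of all transcripts of a gene, without those shared with another gene on the same strand. Log2 CPM had a prior count of 2. The procedure was tested on simulated data. Alternatives were limma-voom (limma 3.58.1), DESeq2 1.42.0, RLE normalization, 2 other filters, each sex alone or adjusted alone, the replicate number as a block, the hepatocyte marker level as a covariate, and each mouse left out. Tables were made in Python 3.11.15 with numpy 2.4.6 and pandas 2.3.3, and figures with matplotlib 3.10.9.

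The members and all lists were chosen with earlier results of these data known, so p values printed for listed genes are a description. The sex test of the members, planned as a test, is given without p values because it shares the Ctrlm kidneys with the contrast used to choose them. Named are the members, Pex5, the listed pathway genes and relatives, the 2 genes most like each member on either scale, and called neighbours within 1 Mb. Of the genes most like Nat8f5 and Acy1, 1 each is not reported here. Dcaf11, named for its promoter, was chosen after its sequence was seen.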

Additional observations from a re-analysis of the deposited data

Results flagged for a closer look

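Within groups of 6 kidneys, 3 of 32 sets of values had 1 kidney apart from the others, judged by its gap to the nearest kidney over the whole range against Dixon's critical value for 6 values, which chance passes in about 1 of 20 sets. For Nat8 it was Ctrlf mouse 5 at 62.6 CPM, when the others had 18.8 to 32.9 (gap over range 0.678). The same mouse stood apart for Nat8f5 at 17.9 CPM, when the others had 2.03 to 5.95 (0.754). For Nat8f3 it was cKOm mouse 4 at 13.8 CPM, when the others had 7.82 to 9.85 (0.661). This kidney also had the highest share of reads that aligned to several places (34.8%, against 27.8% to 29.5% in the other cKOm kidneys), and its part in the level of Nat8f3 was not tested.

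The change with genotype differed between males and females by the interaction term of the model for Nat8f4 (male minus female log2 fold change 1.04), Acy1 (-0.911) and Acy3 (-1.62), which were chosen with these changes known. It also differed for the pathway genes Abcc4 (0.965), Ggt1 (-1.04), Gstm1 (-0.906), Kyat1 (-0.833) and Lap3 (-0.949).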

How the results depend on the processing

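The 4 members called in males remained called under all 9 alternatives and each of 24 mice left out (4 to 5 called). Nat8 joined them with every gene tested, with each sex fitted or adjusted alone, and without Ctrlf mouse 5 or Ctrlm mouse 6. Nat8f2 in females, with 1 of 8 called, went to 0 of 8 with each sex fitted alone and with adjustment within each sex, and leaving out mice kept 1. The 3 members called in the interaction remained under every alternative tried. Sex calls among controls ranged from 3 to 5 with mice left out. Pathway calls in males ranged from 12 to 14 with mice left out and 9 to 14 otherwise, all 9 with the hepatocyte covariate being among the 13. In females leaving out 1 mouse gave 0 to 1, with Gsta3 called without cKOf mouse 6 and Gstm6 without Ctrlm mouse 5, and 0 otherwise. Relatives and neighbours, with 6 called, went to 0 with the hepatocyte covariate, where 5 of the 6 log2 fold changes moved by less than 0.1 (Gm4952 went from -1.01 to -0.73), and ranged from 4 to 7 with mice left out. The sign of the control sex difference of Nat8f4 turned with the hepatocyte covariate (log2 fold change 0.0036) and over left-out mice (-0.16 to 0.039). Of 1024 comparisons of a member's log2 fold change with an alternative, 1007 stayed within 1 SE (genotype and interaction) or kept sign and side of the threshold (sex). The replicate numbers join different mice, and their pairs correlated between -0.199 and 0.118. A fit with the replicate block gave 4, 1, 4 and 3 members in males, females, control sex and interaction, 12 and 0 pathway genes, and 5 relatives and neighbours. With Spearman in place of Pearson, 0 of 16 lists of most similar genes kept both genes and 9 kept 1, and with a prior count of 0.5 all 16 kept both. Over all genes, calls went from 1456 to 878 in males and from 2707 to 1622 between control sexes with the hepatocyte covariate, from 137 to 43 in females with adjustment within each sex, and in the interaction from 372 to 574 with DESeq2. The causes of these changes were not tested. Close copies, of which Nat8f3 has the most, limit what counts can assign to each gene.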
